A study of Mus musculus with 2 samples.

Results

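Telomerase and shelterin genes were examined in P5424 cells, a mouse T-cell line. The 10 genes are Tert and Dkc1 of telomerase, the shelterin genes Terf1, Terf2, Tinf2, Acd, Pot1a, Pot1b and Terf2ip, and the telomere helicase gene Rtel1. All non-control probes that carry one of these gene names were taken, which gave 16 of 55681 probes and 10 of 22221 named genes. Both samples are P5424 cells that the labels give as untreated, with a knockout of Rag2 and of P53, and they were profiled on 1-colour Agilent arrays with 60-base probes, 1 array each. The arrays form a single group, called replicate 1 and replicate 2, and no second condition was measured, so the values describe this line and were not tested between groups. Nothing in the labels tells whether separate cultures were used, so part or all of the replicate spread may be technical.

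Telomerase adds repeats to chromosome ends. Its catalytic subunit is the reverse transcriptase TERT, which copies a template in the RNA Terc, and dyskerin, encoded by Dkc1, binds and stabilises that RNA. Shelterin coats the repeats: TRF1 and TRF2 bind the double-stranded part, POT1 proteins bind the single-stranded overhang, TIN2 and TPP1 join them, and RAP1 rides on TRF2. Mice carry a pair of POT1 genes, Pot1a and Pot1b, where humans have a single POT1. Many mouse tissues keep some telomerase activity, and developing lymphocytes are among the cells in which it is found.

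The probes on which the results below turn are those of Tert, Pot1a and Pot1b, shown because their signals were near background or differed between the arrays, and those of Terf2, shown because they report different transcripts. The first 30 bases of each 60-base probe are given 5′ to 3′ in lower case, with the position of the whole probe on mm9 as in the files. Exon and UTR placement of the probes was not analysed here.
Tert, base 3365 of its transcript, chr13:73786429-73786488, plus strand: ctaagcacagactttcagaccattttggac
Pot1a, base 2377, chr6:25707696-25707755, minus strand: tcagtaataattcctagtagtcacaaaacc
Pot1a, base 2930, chr6:25693898-25693957, minus strand: gtgatgagatttatgatttttgtgtctgtg
Pot1a, base 3126, chr6:25698860-25698919, minus strand: cttcaacttttcagtaaaaggatgtttacc
Pot1b, base 2443, chr17:55792319-55792378, minus strand: aagacacttgtttttgtgctgttcacttac
Terf2, base 1122, chr8:109600701-109600760, minus strand: tccccatcatcaccagcccacaaacacaag
Terf2, base 2084, chr8:109593822-109593881, minus strand: tatgttgagcccagatgagagattttttca
Terf2, base 2406, chr8:109599420-109599479, minus strand: atggcttccttgcattgggtgtactcttac

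The longest run of bases shared by a Pot1a probe and the Pot1b probe was 8. None of the 16 probes shared a run of 20 bases with any other non-control probe of the array, so each was a sequence of its own there. Terf2, Acd and Terf2ip all lie on chromosome 8.

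Of the 10 genes, 9 were detected, meaning that at least 1 probe was marked well above background on both arrays, and Pot1b was the exception. Among all named genes, 51.7% were detected. The share depended on the number of probes, at 45.1% for genes with 1 probe, 64.4% with 2 and 72.2% with 3 or more. Of the 10 genes, 6 had 1 probe, 2 had 2 and 2 had 3. When only a positive and significant signal was asked for, all 10 were detected, against 67.5% of named genes, and with well above background on at least 1 array also all 10, against 54.3%. With detection asked of all probes of a gene, 8 remained, with Pot1a lost (44.6% of named genes). When the signal also had to exceed the brightest negative control spot of each array, 8 remained, with Tert lost (45.8% of named genes).

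As context for these calls, 42.5% of probes on replicate 1 and 41.2% on replicate 2 were well above background. The brightest of 308 negative control spots had 15.1 intensity units on replicate 1 and 100.6 on replicate 2, where the next had 17.6. The well above background mark was itself given to 1 negative control spot on replicate 2 and to 0 on replicate 1. All 8 T-lineage markers examined, among them Cd3e, Lck and Ptcra, were detected, and 0 of 12 markers of B, myeloid, erythroid, epithelial, fibroblast and endothelial cells were. Of these 12, Adgre1 and Mpo were well above background on 1 array and the other 10, with Lyz2, Epcam and Col1a1 among them, on neither.

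The transcript of the catalytic subunit gave a weak signal. Tert had 60.7 intensity units on replicate 1 and 83.1 on replicate 2, and its single spot was well above background on both. No negative control spot was brighter than Tert on replicate 1, and 1 was on replicate 2. Relative to the 75th percentile of its array, on the log2 scale used for all scaled values below, Tert had -2.13 ± 0.40 (SD, n = 2). The scanner software gave its spots an error of 15.3% and 14.02%, against about 10.0% for the bright probes of the set. After scaling, as for all folds between arrays given here, replicate 2 was 1.48-fold higher, which is 1.91 times the combined error of both spots. For bright probes the software's error stayed near 10.0% while pixel variation within the spot differed. That variation was 8.14% for Acd on replicate 2 and 24.5% for Terf1 on replicate 1. Multiples of the combined error, here and below, are therefore not multiples of a spread measured between arrays.

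Dkc1 was measured well above background with a narrower spread. It had 1446 units on replicate 1 and 1206 on replicate 2, a scaled value of 2.09 ± 0.10 (SD, n = 2). After scaling the arrays were 1.104-fold apart for Dkc1, 0.70 times the combined spot error. Its probe lies at chrX:72354473-72354532.

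The proteins that bind the double-stranded repeats were both represented by detected transcripts. Terf1, which encodes TRF1, had 1861 and 1813 units on replicates 1 and 2, a scaled value of 2.56 ± 0.06 (SD, n = 2), at chr1:15833432-15833491. Terf2 encodes TRF2, which shields chromosome ends from the ATM pathway and from end joining, and it was detected with all 3 probes. Its probe at base 1122, listed for both RefSeq transcript variants, had 313 and 371 units and a scaled value of 0.13 ± 0.26. The probe at base 2084, listed for variant 1 but not variant 2, had 3515 and 2964 units, scaled 3.37 ± 0.09.
The probe at base 2406, listed for variant 2, had 2030 and 1812 units, scaled 2.62 ± 0.03. Thus probes listed for each variant were well above background on both arrays, and the scaled fold between arrays was 1.29, 1.09 and 1.03 for the probes in this order. Signals of different probes differ with their sequence, so these values give no ratio between the variants.

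The genes of TIN2, TPP1 and RAP1 differed little between arrays. Tinf2, which encodes TIN2, had 1601 and 1537 units with its probe at base 1348, scaled 2.33 ± 0.04, and 1360 and 1351 units with that at base 1408, scaled 2.12 ± 0.08. The second Tinf2 probe covers 164 bases of the genome (chr14:56298188-56298351), 104 more than its own length, so it skips a stretch of genomic sequence. Acd, which encodes TPP1, the subunit that brings telomerase to the end, had 6936 and 6713 units, scaled 4.45 ± 0.05, at chr8:108222138-108222197. Terf2ip, which encodes RAP1, had 642 and 618 units with its probe at base 1605, scaled 1.02 ± 0.05, and 145 and 143 units with that at base 840, scaled -1.11 ± 0.07. For Tinf2, Acd and Terf2ip, every probe was well above background and the arrays were at most 1.08-fold apart. The median over all detected genes, each taken at 1 probe, was 1.12-fold.

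**Figure D1:**
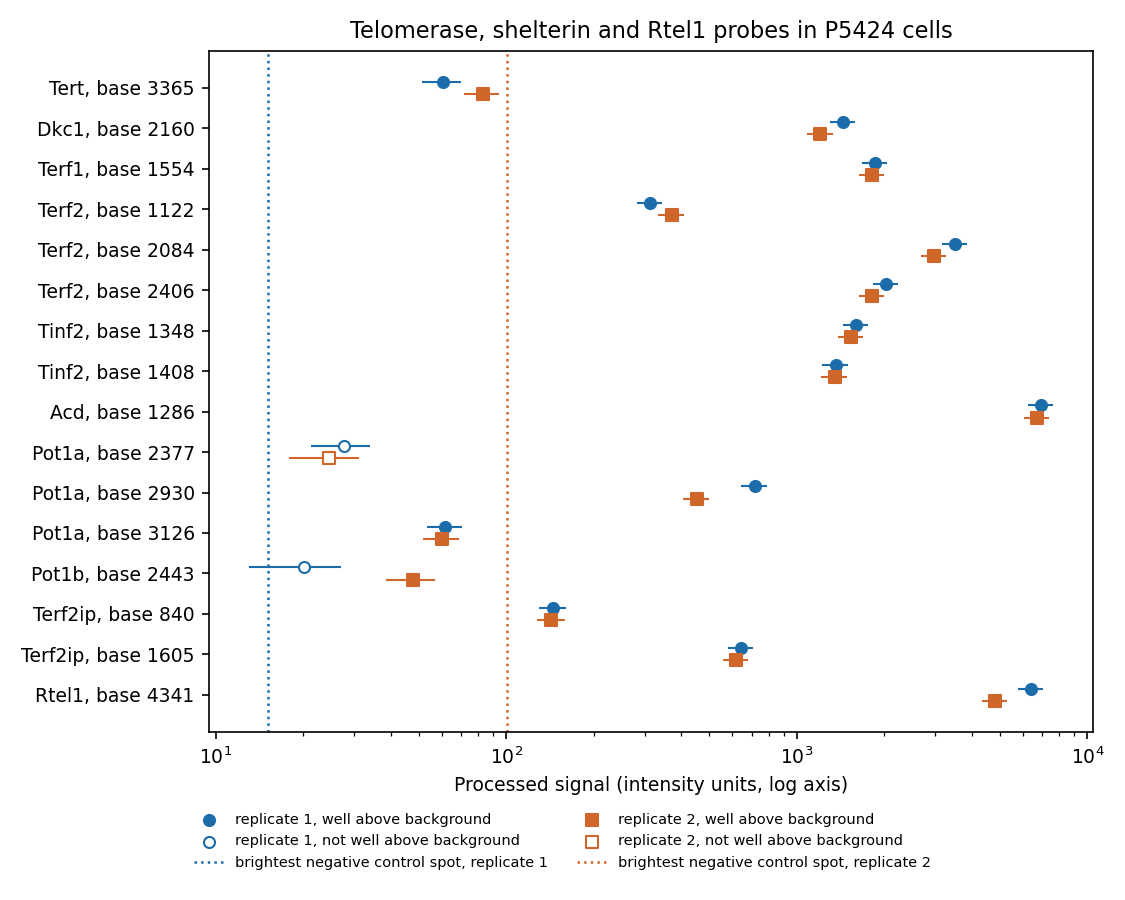
Processed signal (intensity units, log axis) of the 16 probes on replicate 1 (circles) and replicate 2 (squares), with bars for the error the scanner software gives to a spot (for Pot1b the mean over its 10 spots); each row names the gene and the base of its transcript at which the probe starts. Open symbols, at Pot1a base 2377 on both arrays and Pot1b on replicate 1, are not well above background, and Tert lies left of the brightest negative control spot of replicate 2 (dotted line at 100.6); horizontal distances between probes are not differences in transcript level.

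The POT1 genes each had a probe that was not well above background on at least 1 array. POT1A is known in mice for holding back ATR signalling at the overhang, and POT1B for limiting resection of the end. Pot1a was detected with 2 of its 3 probes. The probe at base 2930, listed for the RefSeq transcript, had 716 units on replicate 1 and 452 on replicate 2, a scaled value of 0.87 ± 0.38 (SD, n = 2). The probe at base 3126, listed for Ensembl and cDNA transcripts and for no RefSeq transcript, had 61.7 and 60.2 units, scaled -2.35 ± 0.06. The probe at base 2377, also listed for no RefSeq transcript, was not well above background on either array. After scaling, replicate 2 was 1.46-fold lower for the probe at base 2930, 2.64 times the combined spot error, while the probe at base 3126 was 1.06-fold apart, so the probes of Pot1a did not share the difference.

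Pot1b was well above background on 1 array. Its probe is printed on 10 spots, which on replicate 1 had a lowest signal of 11.1, a median of 21.6 and a highest of 28.7 units, and 0 of 10 were well above background. On replicate 2 the lowest was 37.9, the median 46.4 and the highest 60.1 units, and 9 of 10 were well above background. The spots of the arrays did not overlap, and at 10 of 10 positions replicate 2 was brighter. All 10 spots on both arrays were positive and significant against background by the software's criterion.

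The separation was also present before background subtraction. The raw mean signals of the Pot1b spots ran from 79.6 to 93.9 units on replicate 1 and from 112 to 144 on replicate 2. The local background medians overlapped, at 26.0 to 38.0 units on replicate 1 and 27.0 to 39.5 on replicate 2. Local background was not all that the software removed. A replicate 1 spot with raw mean 92.6 and local background 37 had a processed signal of 23.1. A replicate 2 spot with raw mean 144.2 and local background 34 had 59.5. The overlap therefore does not show whether the background subtracted was alike on both arrays. Spots of a probe on an array share 1 labelled RNA, so they show the precision of that array and are not replicate samples.

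Among the 399 probes printed on 10 spots, 5.76% had all spots higher on replicate 2 than on replicate 1 in unscaled signal, and 14.8% in scaled signal. Of the 59 probes behind the scaled share, 26 had 0 spots well above background on replicate 1. The scaled log2 difference, replicate 2 minus replicate 1, was 1.37 for Pot1b, with 1 flagged spot of replicate 2 left out, and 1 of the 399 probes, that of Cap2, had a larger difference in either direction. Of 183 such probes with 0 spots well above background on replicate 1, Pot1b was the 1 with 5 or more such spots on replicate 2. Of 182 probes with 0 such spots on replicate 2, 0 had 5 or more on replicate 1. The counts over 10-spot probes were made after the Pot1b values were seen. The Pot1b difference was 0.46 with normexp background correction and also 0.46 in the authors' deposited table. Its rank by size among the 10-spot probes was 12 with normexp and 16 in the authors' deposited table, so both size and rank depended on how values near background were treated. In that table the replicate 1 Pot1b spots lay at 5.14 to 5.18, next to its lowest value of 5.13. The normexp step added an offset of 50 units. Either can narrow differences between weak signals, so the equal values of 0.46 are not independent estimates. Whether the arrays differed in Pot1b transcript or in hybridisation near background was not tested.

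**Figure D2:**
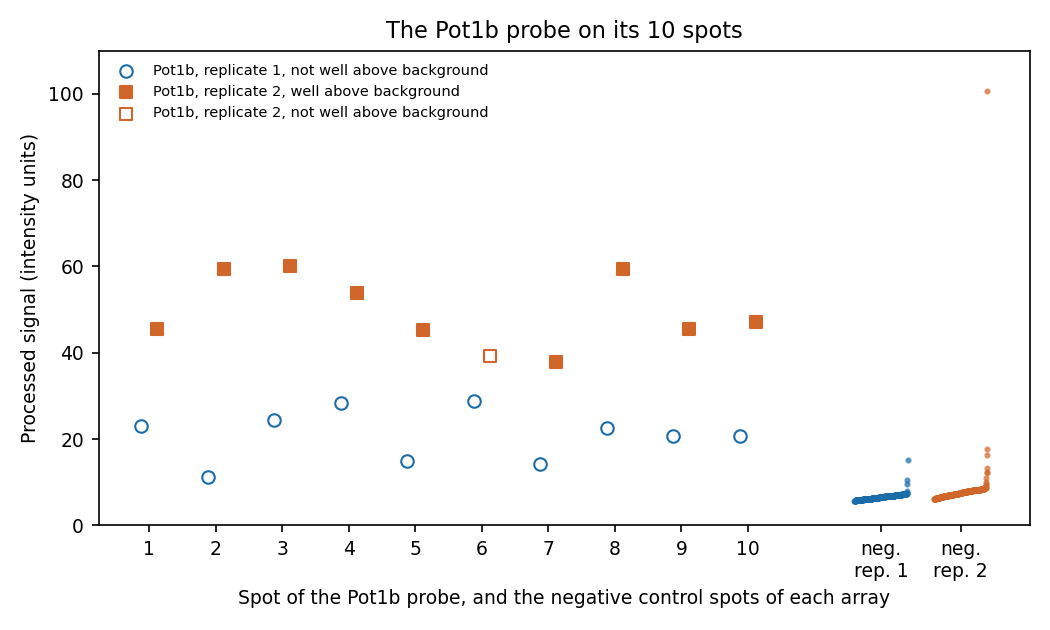
Processed signal (intensity units) of the 10 Pot1b spots on replicate 1 (circles) and replicate 2 (squares), and of the 308 negative control spots of each array at the right; filled Pot1b symbols are well above background. The highest Pot1b spot of replicate 1 (28.7) lies below the lowest of replicate 2 (37.9), and 1 negative control spot of replicate 2, at 100.6, lies above all of them.

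Rtel1 encodes a helicase that takes apart telomeric loops and G-quadruplexes. It had 6418 units on replicate 1 and 4817 on replicate 2, a scaled value of 4.16 ± 0.21 (SD, n = 2), with its probe at chr2:181091224-181091283, which the files list for 4 RefSeq transcripts. After scaling, replicate 2 was 1.23-fold lower, 1.45 times the combined spot error.

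Over the 9 detected genes, each taken at its detected probe with the highest mean, 0 were over 2-fold apart between the arrays, against 0.783% of all detected genes. The median absolute log2 difference was 0.13 for these 9 genes and 0.16 for all 11496 detected genes. The order turned round with scaling by the array median, at 0.34 for the 9 genes and 0.28 for all, and with the mean of all detected probes of a gene the 9 genes had 0.084 and all genes 0.16. Tert and Pot1a had the widest differences of the 9, at 0.57 and 0.54. The direction stated for Tert, Pot1a (probe at base 2930), Pot1b and Rtel1 was the same under all 7 ways of scaling or background correction tried, as it was for Dkc1. For Terf1, Tinf2, Acd, Terf2ip and the Pot1a probe at base 3126 it was not, so no direction is given for those. The Terf2 probes disagreed. Under all 7 ways replicate 2 was higher at base 1122 and lower at base 2084, while the sign at base 2406 changed.

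**Figure D3:**
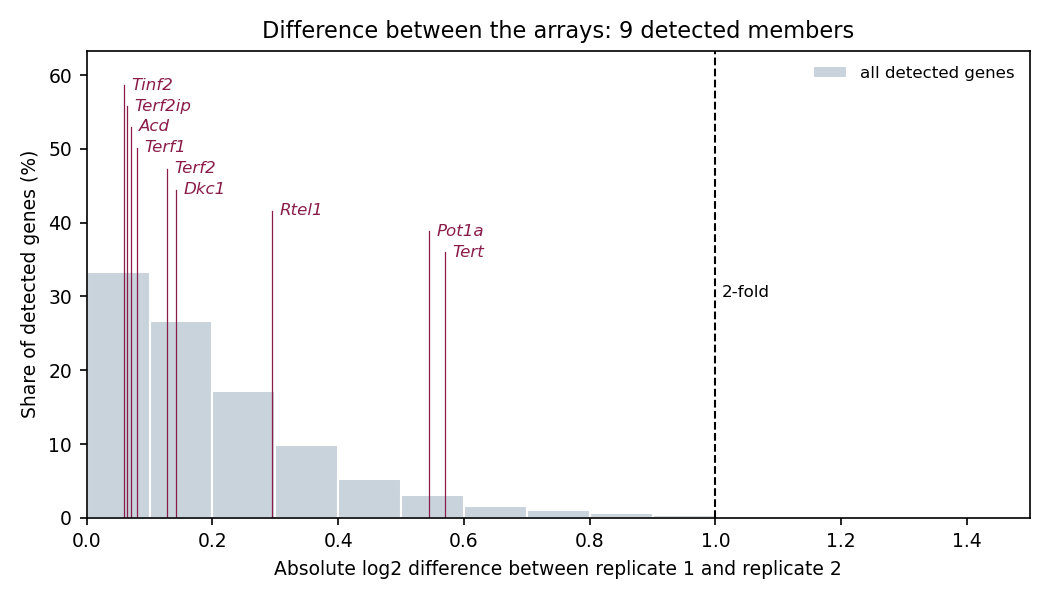
Absolute log2 difference between replicate 1 and replicate 2 for all detected genes (grey bars, share of 11496 genes in %, bins of 0.1) and for the 9 detected members (red lines, whose heights only separate the names). Tinf2, Terf2ip, Acd, Terf1, Terf2 and Dkc1 lie below 0.2, Rtel1 at 0.30, Pot1a at 0.54 and Tert at 0.57, and none reaches the dashed 2-fold line; the axis ends at 1.5, short of the gene farthest apart at 2.30.

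The other parts of the telomerase particle were nearly all detected, with 15 of 16 genes of the telomerase RNP and its assembly. Among all named genes the share was 51.7%. Terc, the RNA that holds the template and lacks the poly(A) tail of mRNAs in its mature form, had 92.7 units on replicate 1 and 39.7 on replicate 2, scaled -2.36 ± 0.78 (SD, n = 2). It was the 1 gene of the pathway lists over 2-fold apart, at 2.15-fold lower on replicate 2 after scaling, opposite to Tert. Under the 7 scalings and corrections the log2 difference of Terc, replicate 2 minus replicate 1, ran from -1.33 to -0.38.
The proteins that accompany dyskerin on H/ACA RNAs were Nop10 at 6.25 ± 0.02, Nhp2 at 7.82 ± 0.00 and Gar1 at 6.89 ± 0.04, all in scaled log2 units. Wrap53, which carries the RNA to Cajal bodies and whose gene lies antisense to Trp53, had 8610 and 7649 units, scaled 4.70 ± 0.04. Tep1, a telomerase-associated protein gene, had 23.9 and 34.5 units and was not well above background on either array, though positive and significant on both.

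Genes of telomere replication and end protection outside shelterin were all detected with at least 1 probe in both lists examined, against 51.7% of all named genes. All 14 genes of the CST complex and telomere replication were detected. With detection asked of all probes of a gene, 13 of them remained (44.6% of named genes). Of the CST complex, which brings DNA polymerase alpha to the overhang, Ctc1 had a scaled value of 4.35 ± 0.03, Stn1 3.67 ± 0.02 and Ten1 3.42 ± 0.22, and the polymerase alpha subunit gene Pola1 had 3.22 ± 0.33. Of the 16 telomere-associated processing and signalling genes, 14 were detected with all probes required, and all 16 with at least 1. Among them Tnks and Tnks2, the tankyrases, had 0.09 ± 0.31 and 3.98 ± 0.11, the nuclease gene Exo1 had 4.59 ± 0.01, and Dclre1b, which encodes the Apollo nuclease that works with TRF2, had -2.15 ± 0.17 with 1 of its 2 probes.

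Of 14 genes of telomeric chromatin and of alternative lengthening of telomeres (ALT, a recombination pathway known from human tumours), 12 were detected. The share among all named genes was 51.7%. Atrx and Daxx, whose loss accompanies that pathway in human tumours, were both detected, Atrx at 0.42 ± 0.18 with all 3 of its probes and Daxx at 5.10 ± 0.02. The histone H3.3 genes H3f3a and H3f3b had 6.09 ± 0.11 and 7.98 ± 0.09. The genes not well above background on either array were Nr2f2 and Zfp827, which encode nuclear factors reported at ALT telomeres in human cells.

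All 8 factors known mainly from human cells to act on the TERT promoter were detected, against 51.7% of all named genes. Myc had a scaled value of 4.71 ± 0.07, Max 4.72 ± 0.10, Mxd1, a MYC antagonist, -0.04 ± 0.08 and Sp1 4.05 ± 0.07. In the 250 bases before the start of each gene (RefSeq, GRCm38.p6), which were available for 9 of the 10 genes, the MYC and MAX motif CACGTG occurred in 0 of 9, against 6.86% of 27025 genes. The SP1 motif GGGCGG, searched on both strands as was CACGTG, occurred in 4 of 9, namely Tert, Pot1a, Pot1b and Rtel1, against 35.4%, and Tert held 2 copies. A match is a run of letters and not a measured binding site.

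Genes that tether telomeres to the nuclear envelope in meiosis were detected in 4 of 7 cases, or 57.1%, near the 51.7% of all named genes. Majin had -2.62 ± 0.21 with 1 of its 3 probes, Sun1 -0.64 ± 0.26 with 1 of its 2, Sun2 4.67 ± 0.03 and Kash5 -1.28 ± 0.16, in scaled log2 units. Terb1, whose protein binds TRF1 in germ cells, and its partner Terb2 were well above background on neither array and Spdya on 1. SUN1 and SUN2 also serve in somatic cells. With detection asked of all probes of a gene, 2 of the 7 were found.

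**Figure D4:**
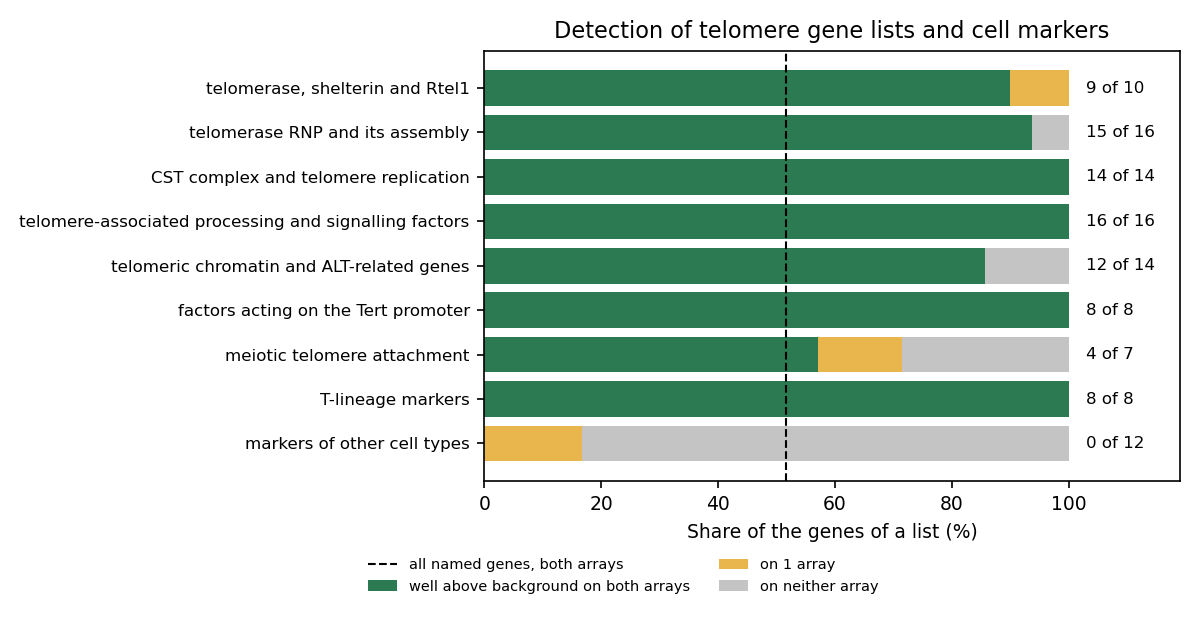
Share of the genes of each list (in %) that were well above background on both arrays, on 1 array or on neither array, with the number detected on both at the right; the dashed line is the 51.7% of all named genes. The members reach 90%, the pathway lists other than the meiotic one 85.7% to 100% and the meiotic list 57.1%. The T-lineage markers reach 100% and the markers of other cell types 0%.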

How the data were processed

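Spot intensity, as deposited by the authors, came per the file headers from Agilent Feature Extraction 10.5.1.1, which subtracted background, removed spatial trends and replaced signals near background by surrogates. Per the file headers, this software also gives each spot an error, a p-value against background and marks such as well above background. The marks and errors were used as deposited and the p-values were not used directly. The authors also deposited a table of log2 values of the same spots, with scale and offset unstated. Its column medians were both 5.18 and its sorted columns differed by at most 0.0125.

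Flagged spots were left out, log2 signals were averaged per probe and the 75th percentile of each array was subtracted (324 units on replicate 1, 299 on replicate 2). A probe was detected when at least 50% of its spots were well above background on both arrays. No spot was saturated. Probes were named by accession, symbol or synonym in a RefSeq table of GRCm38.p6, used for names alone, and 24461 stayed unnamed. The genes named are all 10 members, the first 4 detected genes of each pathway list in its order, and those well above background on 1 array or none. Wrap53, Cap2 and the cell-type markers named were picked after their values were seen. Members and lists were chosen with earlier results of these data known. Alternatives covered detection, scaling, normexp (limma 3.58.1, offset 50), probes per gene and each replicate. The difference step was tested on simulated data. The changes put in were larger than any member difference and the noise was alike at all signals. That test therefore says nothing about small differences or signals near background. The number of arrays limits the precision.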

Additional observations from a re-analysis of the deposited data

How the results depend on the processing

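The count of detected genes among the 10 members ran from 8 to 10 over the 7 alternatives. With a replicate left out it was 9 or 10, but this asks for 1 array only, so the count could not fall. Of 49 alternative counts over the members and pathway lists, 48 were within 1.5 times the reported count. The exception was the meiotic list with every probe required (2 genes, against 4). Counts with at least 1 array, or with a replicate left out, could only equal or exceed the reported count. Outside the meiotic list, list size kept any such rise under 1.5 times, so those agreements were fixed in advance and show no stability. The median absolute difference between the arrays for the 9 detected members was 0.13, and 0.34 with scaling by the array median, where all detected genes had 0.28. That scaling gave a median difference of all detected genes, replicate 2 minus replicate 1, of -0.26, against -0.03. The number of all detected genes over 2-fold apart was 90 and became 34 with normexp, and 0 of the 9 detected members were over 2-fold apart under any scaling or correction tried. Of 84 probe signals recomputed with both replicates kept, 31 stayed within 1 SD of the reported value. Scaled values depend on the percentile or median chosen as 0, and also on background treatment. With normexp and the same percentile, Tert had -1.44 (reported -2.13) and the Pot1a probe at base 3126 had -1.39 (reported -2.35). Under normexp, only Terf2 at base 1122, Pot1a at base 2930 and Terf2ip at base 1605 stayed within 1 SD. Both arrays lie on 1 slide, so no fit with slide as a block was run. No paired analysis was possible because the arrays form 1 group. Weak signals, as for Tert, Pot1b and Terc, which on replicate 2 lay below its brightest negative control spot, limit what 2 arrays can show.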
